A study of Mus musculus with 16 samples.

Results

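The 8 liver libraries of a mouse series of 16 RNA-seq libraries were compared by the suffix of their count column: 4 libraries whose suffix begins with n (n1 and n2, each once with vehicle and once with E2) against 4 whose suffix begins with o (o1 and o2, likewise). They are called n libraries and o libraries here. The other 8 libraries, of aorta, have the same 2 kinds of suffix and were used for comparison at the end. The tissue came from wild-type female C57BL/6 mice ovariectomized 1 week before their organs were taken, at 6 to 7 weeks of age, and the animals of all groups lacked ovaries. Pieces from the tip of the main liver lobe were cultured for 4 h with ethanol or with 10 nM E2 (17b-estradiol, a natural estrogen), and E2 or vehicle entered the comparison of n with o as a covariate.

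The labels describe 2 ways of making libraries and link neither to a suffix. The first 8 samples were converted to cDNA from 50 ng of RNA with an Ovation kit, whose primers are meant to keep ribosomal RNA low, and were sequenced on a Genome Analyzer (first replicate) or a HiSeq 2000 (second). The last 8 were poly-A selected from 600 ng of RNA of 1 aorta or 1 liver piece, prepared with a TruSeq kit and amplified for 14 cycles. The series text gives 4 mice per replicate, which does not cover the libraries made from 1 piece. No source used here says which kit, if either, the letters o and n mark. Kit, RNA input and pooling of animals go together in the labels, so their parts in a difference between n and o cannot be told apart. Instrument varied within the first 8 samples, but no label links a suffix to a sample, so its part cannot be told apart either. The labels do not say that all libraries of a group came from separate animals, so p-values measure only the spread between these libraries, which may be technical.

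As background, ribosomal RNA makes up most of the RNA of a cell and carries no poly-A tail, while most messenger RNAs end in one. Poly-A selection therefore keeps messenger RNA and discards ribosomal RNA and most small RNAs, whereas a protocol that starts from total RNA has to avoid ribosomal RNA in another way. The histone messengers made during DNA replication are the known exception among coding transcripts, since they end in a short stem-loop in place of a tail. Reverse transcription, amplification and fragmentation are also known to treat transcripts differently by their length and base composition. In liver most messenger RNA of hepatocytes encodes secreted plasma proteins and metabolic enzymes.

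Counts in genes ran from 3896733 to 11556815 in the n libraries and from 4887011 to 13078032 in the o libraries. Reads assigned to no counted feature made up 48.0% to 62.2% of an n library and 72.0% to 75.2% of an o library. The ranges did not overlap (exact permutation test, two-sided, p = 0.0286, the smallest that 4 against 4 libraries can give). As annotation and strand setting are not given, reads in introns, on the other strand or between genes cannot be told apart here. Reads that fell on more than 1 gene made up 0.222% to 0.316% of the same total in n and 0.0452% to 0.0501% in o, with the same p. The number of genes with at least 1 count did not separate the types, with 13570 to 15126 in n and 14084 to 14862 in o (exact permutation p = 0.771). All 25 hepatocyte markers passed the filter on low counts, among them Alb (albumin), the gene with the most counts in each n library. Across the tested genes, log2 counts per 1e6 reads of a pair of n libraries correlated with r between 0.934 and 0.968, and those of a pair of o libraries with r between 0.936 and 0.958. For an n with an o library r lay between 0.334 and 0.478. Genes are not independent replicates, so these values are descriptions.

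Transcripts that stood far apart in the 2 types also differed in their sequence. The middle 90 bases of the coding sequence are shown for 3 genes higher in n and 3 higher in o, with G and C in capitals. They are among the genes of largest difference, each with a mean of at least 100 counts per 1e6 reads in the higher type, and they show the base composition that returns below. All are from the GENCODE M21 reference transcripts (build GRCm38), written 5′ to 3′.
Abhd17a (chromosome 10, minus strand, higher in n): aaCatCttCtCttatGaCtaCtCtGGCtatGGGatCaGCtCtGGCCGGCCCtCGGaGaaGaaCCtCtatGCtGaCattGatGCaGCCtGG
Arf5 (chromosome 6, plus strand, higher in n): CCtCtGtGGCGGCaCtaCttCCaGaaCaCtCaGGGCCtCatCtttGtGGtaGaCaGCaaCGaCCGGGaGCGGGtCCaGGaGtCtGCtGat
Nr2f6 (chromosome 8, minus strand, higher in n): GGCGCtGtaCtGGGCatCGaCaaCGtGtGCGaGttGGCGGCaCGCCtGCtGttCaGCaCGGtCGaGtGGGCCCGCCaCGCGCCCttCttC
Rab8b (chromosome 9, minus strand, higher in o): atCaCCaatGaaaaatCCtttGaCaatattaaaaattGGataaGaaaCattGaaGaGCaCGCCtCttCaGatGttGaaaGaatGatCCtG
Trim44 (chromosome 2, minus strand, higher in o): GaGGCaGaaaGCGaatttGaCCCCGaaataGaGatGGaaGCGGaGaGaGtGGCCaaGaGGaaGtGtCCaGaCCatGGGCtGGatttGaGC
Gtf2a1 (chromosome 12, minus strand, higher in o): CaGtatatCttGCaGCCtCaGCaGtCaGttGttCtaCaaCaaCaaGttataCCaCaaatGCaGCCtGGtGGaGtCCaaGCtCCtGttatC
G or C filled 52.2%, 58.9% and 67.8% of the windows of Abhd17a, Arf5 and Nr2f6, and 33.3%, 53.3% and 45.6% of those of Rab8b, Trim44 and Gtf2a1, so the window of Trim44 lay within the range of the others. Over the whole transcript the 3 genes higher in n had 64.6%, 59.9% and 67.3% G or C and the 3 higher in o had 40.6%, 46.7% and 40.8%. The transcripts were 1468, 1116 and 2218 bases long against 4733, 5612 and 6064 bases. Gm4841 met the same rule with a larger difference in favour of o (−8.61, 2839 bases, 41.7% G or C) and is not shown. Lrch3 (2794 bases, 50.6%), Ppp1r9a (3975 bases, 49.7%) and Papolg (3747 bases, 39.8%) met it too. The 3 shown for o are thus longer than these, and the contrast in length is partly one of choice. Across all tested genes with such a window, its median was 55.6% G or C in the 3848 called higher in n and 48.9% in the 4115 called higher in o.

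Values of 4 libraries are given below in the order vehicle 1, vehicle 2, E2 1 and E2 2, as counts per 1e6 reads in genes (CPM, on library sizes scaled by TMM). Differences are log2 of n over o with their standard errors. Abhd17a, an enzyme that removes palmitate from proteins, had 168, 202, 162 and 236 CPM in n and 0, 0.900, 0.243 and 0.335 in o, a difference of 8.63 ± 0.43 (edgeR, adjusted p = 9.98e-11). Trim44, a member of the tripartite motif family, had 7.32, 7.73, 6.99 and 3.62 CPM in n and 2031, 902, 2042 and 937 in o (−7.82 ± 0.42, adjusted p = 1.24e-10). The types did not overlap for either gene in either treatment, and both o1 libraries had more Trim44 than both o2 libraries. Some genes had no count at all in 1 type. Gas1, a cell surface protein of growth arrest, had 371 counts over the 4 n libraries and 0 over the 4 o libraries, which makes it at least 137.3-fold higher in n against a floor of 3 counts over the group. Hdx, a homeobox gene, had 462 counts over the o libraries and 0 over the n libraries, at least 138.7-fold higher in o by the same rule. Among the 11726 tested genes, 13 had no count in any o library and 6 had none in any n library.

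A gene was called when edgeR's quasi-likelihood test gave a Benjamini-Hochberg adjusted p under 0.05 and the difference passed 1 on the log2 scale in either direction. By this rule 3957 genes (33.7% of those tested) were higher in n and 4190 (35.7%) were higher in o, so 8147 genes (69.5%) were called. The CPM of the n and o libraries did not overlap for 8404 genes (71.7%). The median difference over all tested genes was −0.08, and it ran from −0.26 to 0.19 under other scalings of the libraries, which shifts every value below together. With so large a share of genes called, the lists below are read against these percentages.

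Short transcripts were higher in n and long transcripts higher in o. Of the 78 genes with a reference transcript under 500 bases 53 were called higher in n and 12 higher in o, with a median of 2.34. From 500 to under 1000 bases 469 of 635 genes were called higher in n and 32 higher in o (median 2.34). The median was 1.56 from 1000 to under 2000 bases, −0.05 from 2000 to under 4000, −1.67 from 4000 to under 8000 and −2.90 at 8000 bases and over. In that longest class 22 of 565 genes were called higher in n and 451 higher in o. Transcripts of 8000 bases and over took 1.78% ± 0.54 (SD, n = 4) of the counts outside ribosomal RNA in n and 11.2% ± 0.80 in o, while those of 500 to under 1000 bases took 11.5% ± 1.65 in n and 2.71% ± 0.57 in o. Encoded protein length gave the same order: the median was 2.23 for proteins under 100 residues (201 genes) and −2.29 for proteins of 1600 residues and over (586 genes).

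GC content sorted the genes in a like degree. The median went from −2.05 under 40% G or C (418 genes) to −1.03 between 45% and 50%, 0.26 between 50% and 55% and 2.87 at 60% and over. In that highest class 472 of 556 genes were called higher in n and 7 higher in o. Spearman's rho across 11671 genes was −0.55 between the difference and transcript length and 0.55 between the difference and GC content. Length and GC were themselves related (rho = −0.25), and both orders were seen within most classes of the other. Among transcripts of 4000 to under 8000 bases the median went from −2.97 under 40% to 1.70 at 60% and over, and among those of 55% to 60% G or C it went from 3.17 from 500 to under 1000 bases to −0.14 at 8000 bases and over. The levels within each type moved with GC content in opposite directions: log2 CPM correlated with GC content with rho from 0.326 to 0.337 in the n libraries and from −0.274 to −0.239 in the o libraries. A smooth fit on length and GC together took up 48.9% of the variance of the difference across genes. GC of the coding sequence (rho = 0.53) and of the 3′ untranslated region (rho = 0.41) both moved with the difference. All of these are descriptions across genes, and CPM is not divided by length, so the level of a long gene in 1 library also reflects its length.

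**Figure D1:**
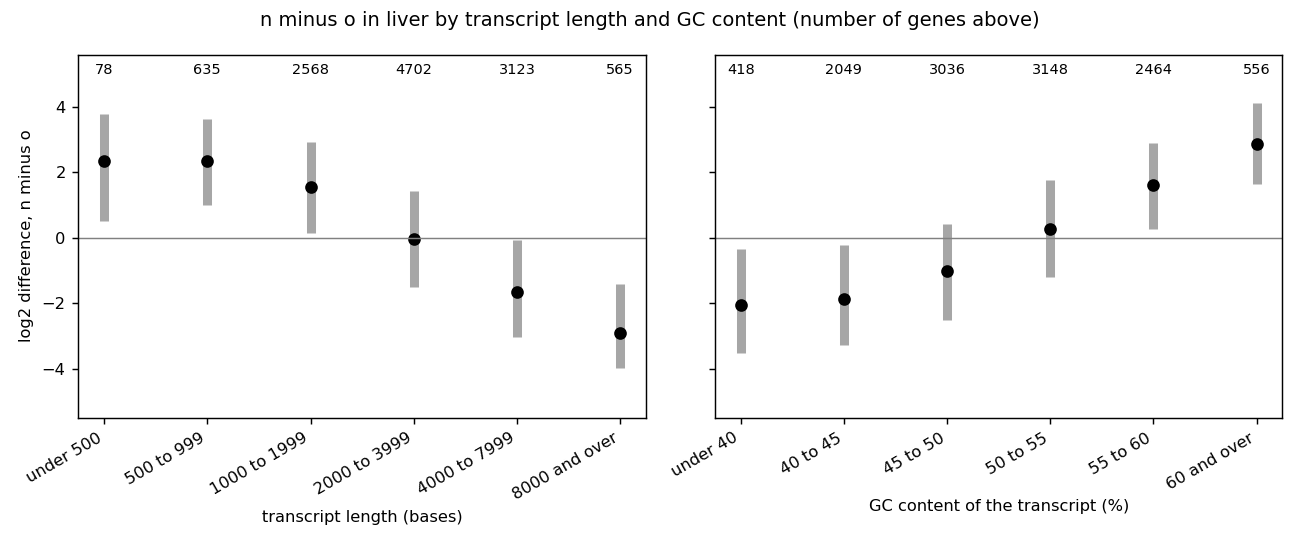
Difference of n minus o in liver (log2, vertical axis) by class of transcript length in bases and of GC content in percent; points are medians, bars run from the lower to the upper quartile, and numbers are genes tested. Medians go from 2.34 to −2.90 with increasing length and from −2.05 to 2.87 with increasing GC content.

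**Figure D2:**
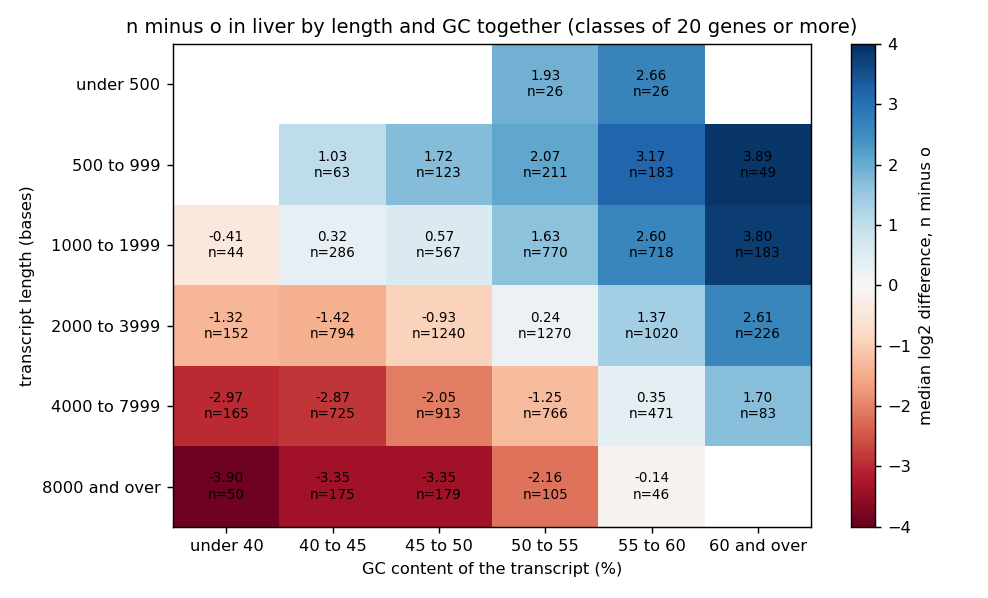
Median difference of n minus o in liver for classes of length (rows, bases) and GC content (columns, percent) together, with the number of genes in each class of 20 or more. The medians run from 3.89 for transcripts of 500 to under 1000 bases with 60% G or C and over to −3.9 for those of 8000 bases and over under 40%.

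Ribosomal RNA was the class with the largest share of the o libraries. The gene Rn45s, the precursor of the 18S, 5.8S and 28S ribosomal RNAs, took 5.48%, 5.52%, 2.94% and 3.83% of the counts in genes in the n libraries and 34.2%, 25.7%, 34.5% and 26.3% in the o libraries. The types did not overlap (exact permutation p = 0.0286, the smallest possible), and both o1 libraries stood above both o2 libraries. Rn45s differed by −3.10 ± 0.34 (edgeR, adjusted p = 2.11e-07). Because a share lost to 1 gene lowers all others, shares without Rn45s are given where they change a statement. The 10 genes with the most counts took 24.3% to 27.6% of n and 35% to 42.9% of o, but without ribosomal RNA they took 20.7% to 25.8% of n and 12.4% to 15.7% of o.

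Other non-coding RNAs took small shares of both types. No spliceosomal small nuclear RNA and none of the small RNAs of RNA polymerase III had enough counts to be tested, and the table lists no gene encoded in mitochondria. Of 105 small nucleolar RNAs, which guide the modification of ribosomal RNA, 6 could be tested: 4 were called higher in n and 1 higher in o. Snord17 had 0 counts in the n libraries and 2.95, 3.27, 5.59 and 6.11 CPM in o, at least 44.7-fold higher in o, while Snord99 had 2.78, 2.24, 2.18 and 3.07 CPM in n and 0 counts in o, at least 26.7-fold higher in n. Of 1088 microRNA genes 9 could be tested, with 5 called higher in n and 2 higher in o. Small nucleolar RNAs and many microRNAs lie inside other genes, the annotation used for counting is not given in the sources used here, and reads of these RNAs cannot be told apart from reads of their hosts. Both small Cajal body RNAs tested were called higher in o. A list of long non-coding RNAs picked by name took 0.0251% ± 0.0049 of counts in n and 0.121% ± 0.018 in o (SD, n = 4). Of its 8 tested members 1 was called higher in n and 5 higher in o. Tsix, the antisense partner of the X-inactivation RNA Xist, had 64.9, 55.9, 72.0 and 43.2 CPM in n and 770, 927, 767 and 804 in o. Xist itself had 0 counts in every liver library, and without a stated strand setting the reads of this pair cannot be told apart. Tsix alone took a mean of 0.00659% of counts in n and 0.0745% in o, the larger part of the class share in o. Malat1 had at most 3 counts in any liver library and Neat1 at most 18, so the share stands for the few members with counts. Classes taken from the reference did not lean to o in the same way. Of 51 lincRNA genes (long intergenic RNAs) 18 were called higher in n and 8 higher in o (median 0.51). Of 59 antisense genes 25 and 18 were called (median 0.39). Without ribosomal RNA the lincRNA share was 0.117% in n and 0.0925% in o, and the antisense share 0.0817% and 0.157%.

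**Figure D3:**
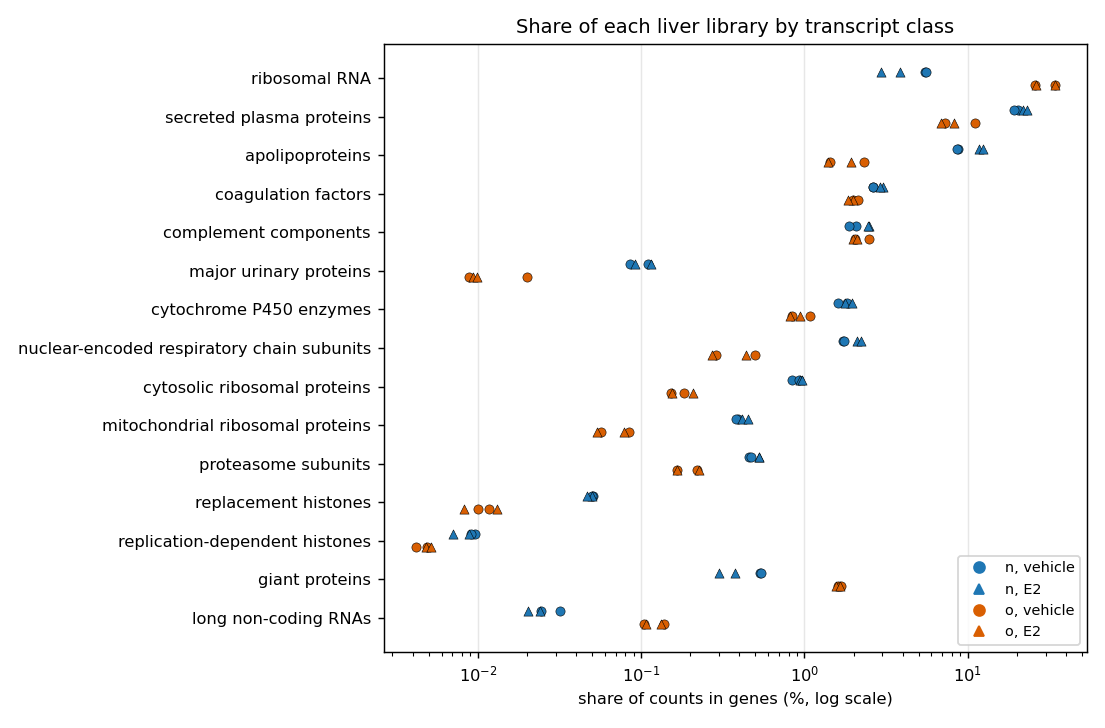
Share of the counts in genes (percent, log scale) taken by 15 transcript classes in each liver library; blue marks n and orange o, circles vehicle and triangles E2. Ribosomal RNA lies at 2.94% to 5.52% in n and 25.7% to 34.5% in o, while apolipoproteins, ribosomal proteins and respiratory chain subunits lie higher in every n library.

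Secreted plasma proteins, the main export product of hepatocytes, were mostly higher in n. Of 56 genes 40 were called higher in n and 3 higher in o, with a median of 1.8. Together they took 20.4%, 19.3%, 21.8% and 23.0% of the counts in n and 7.23%, 11%, 6.89% and 8.24% in o. The ranges did not overlap, and without ribosomal RNA the means were 22.1% in n and 11.9% in o. Hpx (hemopexin, which binds free heme) had 4250, 5614, 9078 and 7506 CPM in n and 209, 405, 189 and 274 in o (4.58 ± 0.36, adjusted p = 3.54e-09). Fn1, whose product fibronectin is among the longest plasma proteins, had 476, 482, 550 and 334 CPM in n and 3027, 3219, 3105 and 2798 in o (−2.72 ± 0.26, adjusted p = 3.44e-08). Albumin did not pass the test: Alb had 63349, 51237, 85975 and 78952 CPM in n and 40770, 60186, 38741 and 37460 in o, the types overlapped, and the difference was 0.65 ± 0.31 (adjusted p = 0.0623). A split of all proteins by hydropathy gave a weaker order than these lists. Proteins with a signal-like start and no later membrane-like stretch had a median of 0.63 (1450 genes), and those with neither had −0.23 (6723 genes).

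Apolipoproteins, the protein parts of lipoprotein particles, showed the highest median of the protein lists that hold more than 10 tested genes, at 3.32. All 16 were called, 15 of them higher in n, and their share was 10.4% ± 1.99 in n and 1.77% ± 0.44 in o (SD, n = 4). Apoe had 25343, 24948, 44622 and 43555 CPM in n and 3572, 5249, 3286 and 4713 in o (2.99 ± 0.32, adjusted p = 1.51e-07). Apoc4, a small apolipoprotein, had 2397, 2266, 4282 and 4662 CPM in n and 34.7, 53.2, 37.4 and 46.4 in o (6.23 ± 0.34). The exception was Apob, the very large protein that forms the body of low-density lipoprotein, with 1456, 1575, 1322 and 1326 CPM in n and 4563, 6067, 4550 and 4262 in o (−1.77 ± 0.24, adjusted p = 3.31e-06). For Apoc4 and for Apob alike no n library overlapped an o library. In both E2 n libraries Apoe was above both vehicle n libraries, and the test of that interaction is given with the E2 effects below.

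Coagulation factors and complement components had calls in both directions, as had all tested genes (33.7% higher in n and 35.7% higher in o). Of 23 coagulation genes 8 were called higher in n and 3 higher in o (median 0.28, which was −0.02 in the vehicle libraries alone), and of 25 complement genes 9 and 7 (median 0.16, which became −0.02 when libraries were scaled by totals without ribosomal RNA). F12, a protease that starts the contact pathway, had 707, 587, 967 and 1011 CPM in n and 53.9, 91.7, 61.0 and 83.9 in o (3.46 ± 0.28). F5, a long cofactor of thrombin formation, had 105, 79.9, 87.9 and 67.8 CPM in n and 1482, 1455, 1392 and 1101 in o (−3.99 ± 0.26). F12 and F5 were the highest and the lowest of the coagulation list, and neither gene overlapped between types. All 4 major urinary proteins tested were higher in n, and their near-identical copies make the split of reads among them uncertain.

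The short messengers of the translation and energy machinery were higher in n almost throughout. Of 62 cytosolic ribosomal proteins 51 were called higher in n and 0 higher in o (median 2.65); of the 11 not called, Rpl38 had the lowest difference, with 1.61, 1.25, 2.63 and 1.39 CPM in n and 3.17, 3.44, 3.16 and 4.10 in o (−1.0 ± 0.49, adjusted p = 0.0732). Rplp1, of the ribosomal stalk, had 531, 482, 836 and 903 CPM in n and 8.16, 6.22, 8.26 and 8.53 in o (6.43 ± 0.29, adjusted p = 7.64e-11). Many ribosomal protein genes have processed pseudogenes, so their counts depend on how reads that fit several places were treated, which is not given in the sources used here. Of 73 mitochondrial ribosomal proteins 65 were called higher in n and 2 higher in o (median 2.65). Mrps34, of the small mitochondrial subunit, had 69.9, 56.1, 124 and 104 CPM in n and 0, 0.409, 0.486 and 0.753 in o (7.5 ± 0.38). Mrps2, of the same subunit, went the other way (−1.65 ± 0.27). Of 77 nuclear-encoded subunits of the respiratory chain and ATP synthase 67 were called higher in n and 0 higher in o (median 2.55), with a share of 1.95% ± 0.25 in n and 0.374% ± 0.112 in o. Atp5d, of the ATP synthase stalk, had 307, 327, 520 and 551 CPM in n and 7.02, 8.10, 4.37 and 7.19 in o (5.92 ± 0.32). Among 47 proteasome genes 31 were called higher in n and 1 higher in o (median 1.38), the latter being Psme4, the long activator PA200 (−1.78 ± 0.22). These lists had short reference transcripts, with medians of 858 bases for cytosolic ribosomal proteins, 1339 for mitochondrial ribosomal proteins and 865 for the respiratory chain.

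Genes of giant proteins were higher in o. The list holds scaffold, cytoskeletal and extracellular proteins with a median reference transcript of 14649 bases. Of 37 tested genes 32 were called higher in o and 2 higher in n (median −3.35), and their share was 0.440% ± 0.12 in n and 1.62% ± 0.05 in o. Mdn1, an assembly factor of the large ribosomal subunit, had 11.3, 8.98, 7.44 and 4.74 CPM in n and 430, 377, 434 and 330 in o (−5.61 ± 0.29, adjusted p = 1.13e-10). Neb, which encodes the muscle protein nebulin, had 16.0, 14.3, 8.17 and 5.86 CPM in n and 899, 647, 617 and 513 in o (−5.97 ± 0.30). The 2 giants that were higher in n were Tnxb (1.93 ± 0.27), of the extracellular matrix, and Plec (1.78 ± 0.25), a linker of the cytoskeleton. Zinc finger genes named Zfp, a large family of DNA-binding proteins, had 104 of 235 called higher in o and 51 higher in n (median −0.95). Some of the genes with the most counts in o were far lower in n. Prpf38b, a splicing factor, had 76.7, 68.5, 74.7 and 72.8 CPM in n and 7898, 3873, 8833 and 4150 in o (−6.40 ± 0.37). Eif3a, the large subunit of translation initiation factor 3, had 124, 88.7, 160 and 77.5 CPM in n and 5818, 5641, 6009 and 5507 in o (−5.67 ± 0.33). As with Trim44 and ribosomal RNA, the o1 libraries had more Prpf38b than the o2 libraries, while for Eif3a the 4 o libraries lay close together.

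Histone genes were examined by how their messengers end. Of 68 replication-dependent histone genes, which normally lack a poly-A tail, 8 had enough counts to be tested, with 3 called higher in n, 3 higher in o and 2 not called. Their median of −0.04 changed sign with the scaling (−0.21 to 0.24). The share of all 68 was 0.00866% ± 0.00110 in n and 0.00478% ± 0.00044 in o, and without ribosomal RNA 0.00907% and 0.00684%. A search of each coding transcript after its stop codon for the stem-loop motif (GGCNC, TTTT and NAGNGCC in direct succession, N for any base, on the transcript's strand only) found it in 43 of 20482 genes (0.210%), among them 41 of the 67 replication-dependent histone genes searched. It is shown for 4 tested genes, the motif alone and so all in capitals, to set the motif beside opposite differences.
Hist1h1c (chromosome 13, plus strand, higher in n): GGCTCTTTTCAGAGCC
Hist1h2be (chromosome 13, minus strand, higher in o): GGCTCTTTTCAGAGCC
Hist1h4d (chromosome 13, plus strand, higher in o): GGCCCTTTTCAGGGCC
H2afx (chromosome 9, plus strand, higher in n): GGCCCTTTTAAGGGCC
Hist1h1c, a linker histone, had 38.8, 32.7, 42.0 and 37.9 CPM in n and 6.57, 3.03, 3.65 and 1.92 in o (3.42 ± 0.36, adjusted p = 1.18e-07). Hist1h2be, a core histone with the same 16 bases, had 0, 0.125, 0 and 0.279 CPM in n and 2.49, 3.35, 3.16 and 5.52 in o (−5.39 ± 0.84, adjusted p = 1.52e-05). Hist1h4d, an H4 gene, had 0, 2.00, 0.544 and 0.279 CPM in n and 11.8, 15.6, 15.3 and 15.4 in o (−4.27 ± 0.61). A stem-loop motif was present in genes higher in each type. Of 8 tested genes that hold it, H2afx included, 3 were called higher in n and 3 higher in o (37.5% each). These counts, like those of the replication-dependent list, lay near the shares over all tested genes (33.7% and 35.7%). Hist1h1d (2.98 ± 0.67) and Hist1h2bc (3.76 ± 0.38), the latter with no match to the motif in its reference transcript, were higher in n, Hist1h4c was higher in o (−2.11 ± 0.56), and Hist1h1e (−0.88 ± 0.40, adjusted p = 0.0553) and Hist3h2a (0.80 ± 0.46, adjusted p = 0.122) were not called. The reference transcripts of all 8 tested genes with the motif run on past it, by 454 bases (Hist1h4c) to 4884 (Hist1h1d). The distance was 840 bases for Hist1h1c and 1861 for Hist1h2be. The motif is thus not the end of these reference forms, and which ending was sequenced is not known. Clustered histone genes are near-identical copies, and the counts of any 1 of them are uncertain.

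Replacement histones, whose messengers mostly carry a poly-A tail, were higher in n. Of 9 tested genes 8 were called higher in n and 0 higher in o (median 2.61), with a share of 0.0495% ± 0.0021 in n and 0.0108% ± 0.0021 in o. H2afx, the variant phosphorylated at DNA breaks, is known to be made with either ending and had 5.42, 2.99, 2.99 and 1.95 CPM in n and 0, 0.164, 0.243 and 0.0836 in o (4.6 ± 0.74, adjusted p = 2.29e-05). H2afz was not called (−1.09 ± 0.53, adjusted p = 0.0734). Of 8 tested factors that process histone messengers 5 were called higher in o and 2 higher in n (median −2.21). Casp8ap2, a long coactivator of histone transcription, was the lowest (−4.39 ± 0.31), and Sympk, the scaffold of the cleavage complex, the highest (2.41 ± 0.23).

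Families of liver enzymes and transporters also had calls in both directions, beside 33.7% higher in n and 35.7% higher in o over all tested genes. Of 63 cytochrome P450 enzymes, which oxidise drugs and sterols, 29 were called higher in n and 8 higher in o (median 0.91). Cyp2d10, of the drug-metabolising branch, had 698, 689, 998.6 and 1414 CPM in n and 66.2, 62.6, 49.8 and 39.1 in o (4.09 ± 0.32). Cyp7a1, the rate-limiting enzyme of bile acid synthesis, had 30.9, 11, 18.1 and 20.4 CPM in n and 150, 241, 162 and 262 in o (−3.35 ± 0.32, adjusted p = 4.65e-08). Neither gene overlapped between types, and the difference had opposite signs in these enzymes of 1 family. Of 16 UDP-glucuronosyltransferases 4 were higher in n and 6 higher in o (median −0.54); Ugt1a isoforms share exons, which makes their separate counts uncertain. Of 21 genes of cholesterol synthesis 7 were higher in n and 5 higher in o, with a median of −0.23 that reached 0.04 under another scaling. Mvk (mevalonate kinase) was the highest (4.29 ± 0.32). Of 221 solute carriers 79 were higher in n and 66 higher in o, with a median of 0.05 that went to −0.13 under library totals without ribosomal RNA.

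Genes that respond within minutes or hours had calls in both directions too, and the shares over all tested genes were 33.7% and 35.7%. Of 23 immediate early genes 10 were called higher in n and 5 higher in o (median 0.85). Junb, a short intronless transcription factor gene, had 393, 427, 468 and 333 CPM in n and 16.1, 10.1, 17.5 and 13.6 in o (4.84 ± 0.28), while Egr1, of the same response, had 318, 317, 204 and 198 CPM in n and 1544, 1776, 1627 and 2333 in o (−2.84 ± 0.27). Heat shock genes gave 4 in each direction among 15. Hspa1b, the inducible chaperone, was higher in n (3.55 ± 0.31) and Hsp90ab1, the constitutive one, higher in o (−2.28 ± 0.28). Interferon-stimulated genes had 3 of 20 higher in n and 7 higher in o, and their median of −0.18 changed sign with the scaling (−0.36 to 0.11). Clock genes had 2 of 18 higher in n and 7 higher in o (median −0.73), with Clock itself at −4.95 ± 0.39. Genes of hypoxia and glycolysis had 6 of 18 higher in n and 5 higher in o (median −0.38).

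Most lists of liver cell type markers had calls in both directions, beside 33.7% higher in n and 35.7% higher in o over all tested genes. In whole tissue, fewer cells of a type and less RNA per cell cannot be told apart. Hepatocyte markers had 12 of 25 called higher in n and 5 higher in o (median 0.74). Markers of Kupffer cells, the resident macrophages of liver, had 2 of 22 higher in n and 13 higher in o (median −1.50), and their summed share ran from 0.0481% to 0.112% in n and from 0.131% to 0.174% in o. Timd4, which marks resident Kupffer cells, had 1.17, 3.87, 0.454 and 1.12 CPM in n and 175, 162, 152 and 52.4 in o (−6.47 ± 0.46). C1qa, made by the same cells, went the other way, with 60.9, 83.4, 54.3 and 62.5 CPM in n and 11.8, 4.66, 4.13 and 5.35 in o (3.39 ± 0.31). Timd4 and C1qa were the lowest and the highest of this list, which as a whole leaned to o. Sinusoidal endothelial markers leaned to o, with 3 of 18 higher in n and 12 higher in o (median −1.31). Stab2, a scavenger receptor among the 2 lowest members, was higher in o (−2.88 ± 0.24). Its relative Stab1, among the 2 highest, was higher in n (1.55 ± 0.22). Neutrophil markers had 5 of 7 higher in n and 0 higher in o (median 3.21), at a summed share of 0.00885% to 0.0261% in n and 0.00185% to 0.00294% in o. Lymphocyte markers had 8 of 17 higher in n and 3 higher in o, stellate and fibroblast markers 7 and 3 of 16, cholangiocyte markers 4 and 2 of 11, erythroid markers 1 and 1 of 4, and mesothelial and adipose markers 2 and 2 of 6. The part of cell composition in any difference between n and o was not tested.

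**Figure D4:**
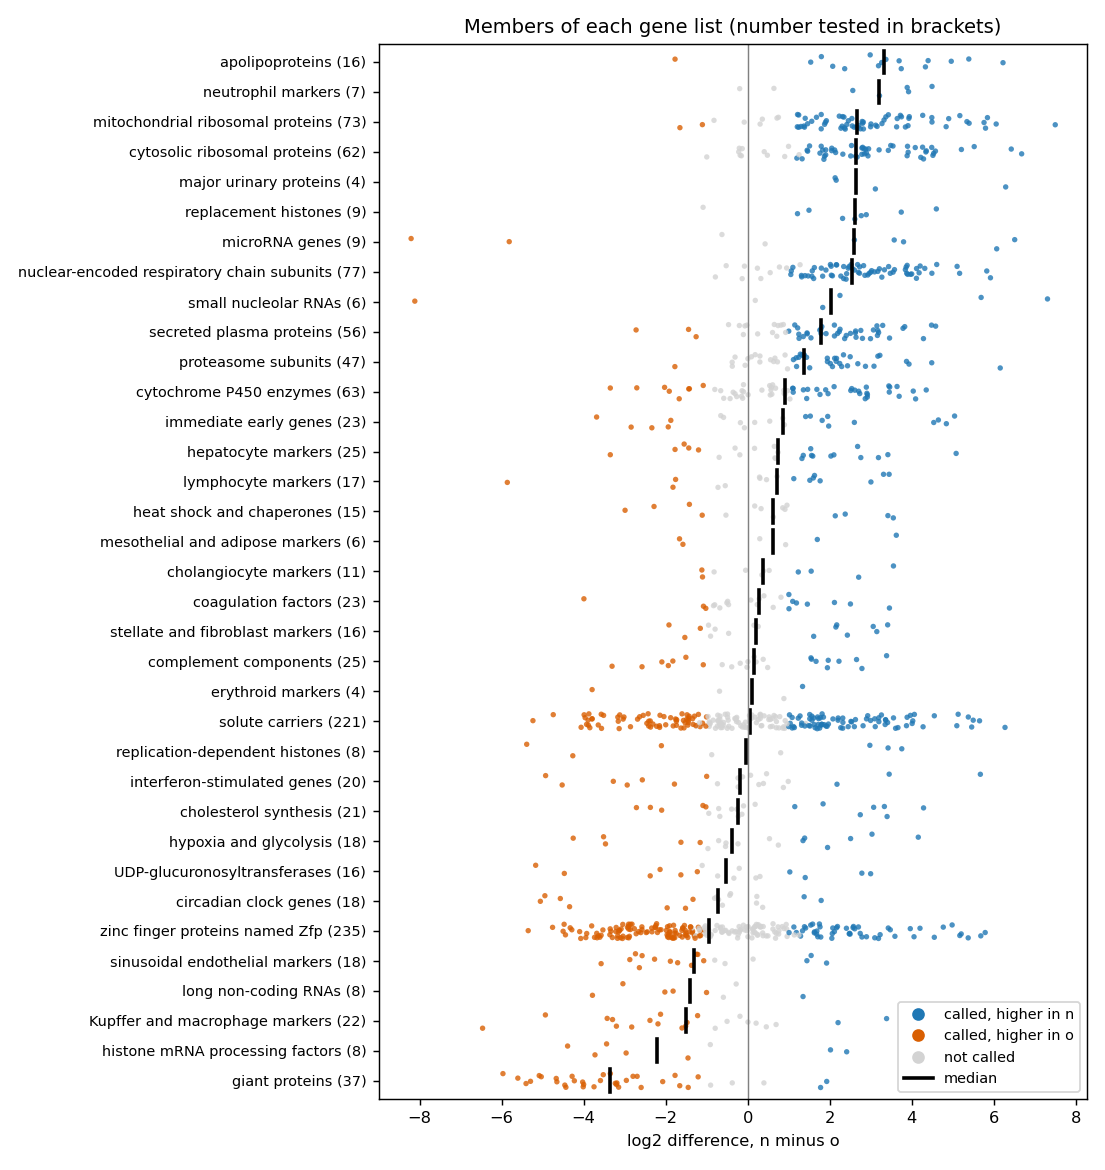
Difference of n minus o (log2, horizontal axis) of each tested member of the gene lists with at least 4 tested members; blue points were called higher in n, orange higher in o and grey were not called, and black bars are medians. List medians run from 3.32 for apolipoproteins to −3.35 for giant proteins, and most lists hold members called in both directions.

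Length and GC content were then taken into account, by an adjustment chosen after seeing the data. The value fitted from both across all tested genes was taken away from each gene, which left a median of −0.10 over all tested genes. Apolipoproteins kept a median of 1.54, mitochondrial ribosomal proteins 1.45, replacement histones 1.06, cytochrome P450 enzymes 0.87, cytosolic ribosomal proteins 0.86, respiratory chain subunits 0.86 and secreted plasma proteins 0.82. The median of giant proteins went from −3.35 to −0.60 and that of the Zfp genes from −0.95 to 0.011. Long non-coding RNAs went from −1.41 to 0.12 and UDP-glucuronosyltransferases from −0.54 to 0.029. Kupffer and macrophage markers went further from 0, from −1.50 to −2.09, and lymphocyte markers changed sign, from 0.72 to −0.64. The medians of mesothelial and adipose markers (0.61 to −0.52), of cholesterol synthesis (−0.23 to 0.20) and of erythroid markers (0.10 to −0.87) also changed sign. These medians are descriptions of lists, and the fit is one across genes.

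The same comparison in aorta shows how far the pattern was that of liver. Over 14190 genes tested in all 16 libraries the differences of n minus o in liver and in aorta correlated with r = 0.821 (across genes, with separate libraries in each tissue). The difference between tissues was tested as an interaction. It was called in 1272 genes (8.96%) as higher in liver and in 2666 (18.8%) as higher in aorta, with a median over all genes of −0.41. With DESeq2 size factors these were 1788 and 1880, so the split between directions rests on the scaling. With tissue and suffix as a replicate block in limma voom they were 884 and 1473, and of the lists named next the counts of apolipoproteins (7), cytosolic ribosomal proteins (12) and immediate early genes (5) fell the most relative to those given. Respiratory chain subunits had a median of 2.62 in liver and 0.77 in aorta, with 63 of 80 called higher in liver and 0 higher in aorta. Apolipoproteins had 3.4 and 1.01 (12 of 16 called higher in liver), mitochondrial ribosomal proteins 2.74 and 1.31 (48 of 75), proteasome genes 1.44 and 0.38 (25 of 48) and cytosolic ribosomal proteins 2.23 and 1.13 (24 of 76). Giant proteins had −3.12 and −1.95 (23 of 40 called higher in aorta), and Kupffer and macrophage markers −1.43 and −0.03 (14 of 23 called higher in aorta). Immediate early genes had 0.99 and 1.95, with 8 of 25 called higher in aorta. Replacement histones stood close in both tissues, at 2.70 and 2.56.

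Ribosomal RNA separated the types in liver far more than in aorta. Rn45s took 3.64% to 4.22% of the counts in the aorta n libraries and 3.38% to 6.20% in the aorta o libraries, which overlap, against no overlap in liver. In the fit over all 16 libraries Rn45s differed by −3.01 in liver and −0.99 in aorta, a difference of −2.02 ± 0.46 (edgeR, adjusted p = 0.00366). The liver o libraries were thus the 4 with the highest share of ribosomal RNA of all 16. Albumin showed a further difference between tissues: Alb was at 0.73 in liver and −2.27 in aorta (difference 3.01 ± 0.62, adjusted p = 0.00192), with 28.0 ± 11.1 CPM in aorta n and 136.7 ± 122.2 in aorta o (SD, n = 4).

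**Figure D5:**
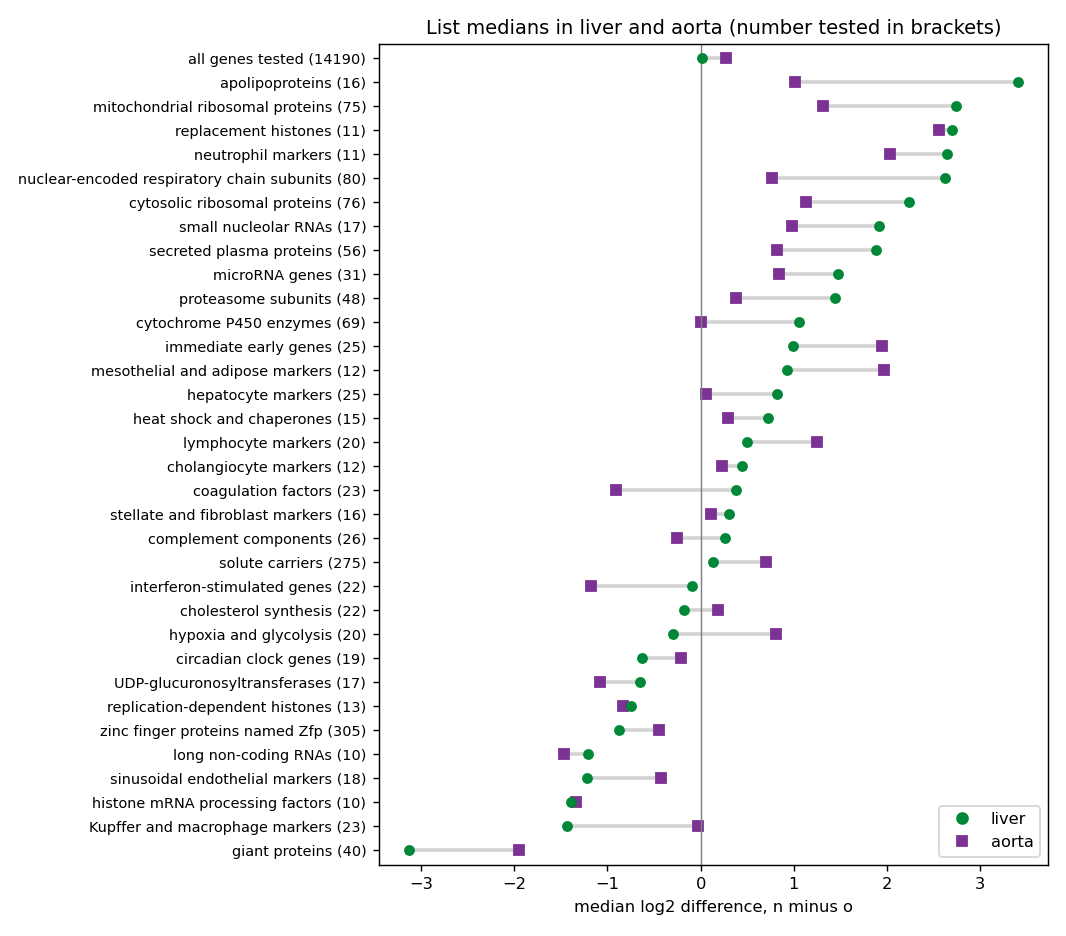
Median difference of n minus o (log2) of all tested genes and of each list with at least 10 tested members, in liver (circles) and aorta (squares), joined by a line. Respiratory chain subunits and apolipoproteins lie further from 0 in liver than in aorta, while replacement histones lie close together.

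The effect of E2 in n and in o libraries was compared last, by the interaction of library type with treatment. No gene of 11726 was called at an adjusted p under 0.05 (0.0%); 965 had an unadjusted p under 0.05 and the smallest adjusted p was 0.483. DESeq2 called 26 of the 814 genes to which it gave an adjusted p, edgeR without a filter called 20, and limma voom called 0. Each cell of this design held 2 libraries. The 5 genes with the smallest p, none of them called, were Nnmt, Orm3, Hamp2, Sult2a7 and Orm2. Nnmt, which methylates nicotinamide, had 103, 193, 627 and 678 CPM in n and 28.3, 42.3, 24.1 and 19.4 in o. Hamp2, a relative of the iron hormone hepcidin, had 299, 277, 743 and 1941 CPM in n and 84.5, 139, 69.5 and 77 in o. For both genes the E2 libraries were above the vehicle libraries in n and below them in o, and the difference between the E2 effects was 2.86 ± 0.49 for Nnmt (adjusted p = 0.483) and 2.83 ± 0.56 for Hamp2 (adjusted p = 0.577). Orm3 and Orm2, acute-phase carriers of the orosomucoid family, and Sult2a7, a sulfotransferase, had the same signs. For Apoe the difference between the E2 effects was 0.95 ± 0.40 and was not called (adjusted p = 0.579).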

How the data were processed

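The deposited file holds read counts per gene symbol for 16 libraries. Per the submitters' processing notes the authors aligned reads with Bowtie 0.12.5 to mm9 and counted them with HTSeq 0.4.5p7; edgeR 3.4.2 is also named. The sources used here give no annotation, strand setting or read filter. The deposited values were entered as estimated counts because 1 line holds percentages, but all gene values are whole, so rounding changed nothing. The 8 lines that name no gene stayed out of library sizes and tests: the reads assigned to no counted feature and those on several genes are given with the results.

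Columns were assigned to tissue and treatment by name, and to n or o by suffix. The test was that of edgeR 4.0.16 under R 4.3.3 (glmQLFit and glmQLFTest, TMM, filterByExpr by library type with a minimum count of 10 and total of 15), with treatment as a covariate. The SE is the absolute log2 difference divided by the square root of the F statistic, and the SD is over the 4 libraries of a type. The script recovered known changes in data simulated from these counts, where few genes were changed, equally in both directions. In the libraries themselves most tested genes were called, so that check does not cover the scaling of these data. Single shares were compared by exact permutation of libraries. Precision is limited by 4 libraries a type and, for rare genes, by totals from 3896733 counts, and floors cover counting error only.

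Length, GC content and motifs came from GENCODE M21 (build GRCm38), 1 transcript per gene with the longest coding sequence; 23625 of 24011 symbols matched. As that is not the authors' build, no coordinates are given. Proteins were split by Kyte-Doolittle hydropathy (signal-like: 8 residues averaging 2 or more before residue 30; membrane-like: 19 residues averaging 1.6 or more after residue 40).

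The 41 gene lists were chosen, like the libraries compared, with earlier results of these data known. Named genes are the largest differences in each direction with at least 10 CPM and no overlap, the genes with most counts, the highest and lowest of each list, and the leading genes of both interactions. GC content, motifs, the sequence window and the adjustment for length and GC were added after seeing the data. Alternatives covered scaling, filter, test, block, treatment alone, fold threshold and each library left out.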

Additional observations from a re-analysis of the deposited data

Results flagged for a closer look

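Among 354 combinations of a named gene with n or o libraries, 20 had 1 library far from the other 3 (Dixon's test at the 95% level). Chance alone gives about 1 in 20, so the total is near the chance rate. Values are CPM in liver. The vehicle o2 library stood highest for Alb (60186, others 37460 to 40770), Apoa1 (5226, others 4301 to 4458), Apob (6067, others 4262 to 4563) and Mup10 (75, others 37.1 to 40.8), and lowest for Masp1 (275.9, others 291.9 to 294.5) and Rplp1 (6.22, others 8.16 to 8.53). The vehicle o1 library was highest for C1qa (11.8, others 4.13 to 5.35) and lowest for Hist1h4d (11.8, others 15.3 to 15.6), and the E2 o1 library was highest for Slc4a4 (310.8, others 253.5 to 262.4). Among the n libraries, E2 n1 was lowest for Rn45s (30819, others 41598 to 43272), E2 n2 was lowest for Hspa1b (46.6, others 84.1 to 88.7) and Cyp2c55 (1.12, others 2.27 to 2.49), and vehicle n2 was highest for Pgk1 (11.2, others 9.44 to 9.52).

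In the other 7 of these 20 cases 1 library held the only counts of a gene in its type: 1110065P20Rik and Mir7051 (0.0836 each, E2 o2), Snora70 and Slc41a3 (0.0818 each, vehicle o2), Bloc1s4 (0.243, E2 o1), Hdac9 (0.249, vehicle n2) and Kcnj13 (0.279, E2 n2).

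The difference of n minus o differed between liver and aorta in 10 genes named by their size of interaction in edgeR's test over all 16 libraries. It was lower in liver for Tac1 (−8.24 ± 1.67), Esrp1 (−7.45 ± 1.37), Arhgap19 (−7.09 ± 1.31), Gabbr2 (−6.31 ± 0.94) and Cib3 (−6.05 ± 1.57). It was higher in liver for Car4 (6.81 ± 1.29), Tmem45b (5.46 ± 1.40), Tmeff2 (5.35 ± 0.87), Slc9a2 (5.26 ± 1.72) and Hrc (5.01 ± 0.77). With tissue and suffix as a replicate block in limma voom, Tmem45b (2.09, adjusted p = 0.144) and Slc9a2 (2.24, adjusted p = 0.125) were not called. Most of these values rest on a type and tissue with counts at or near 0, where a fitted difference depends on the prior count. Arhgap19 had 0 CPM in liver n and 11.6 ± 7.6 in liver o, and 0.519 ± 0.262 in aorta n and 4.06 ± 0.69 in aorta o (SD, n = 4). Hrc had 1.59 ± 1.51 CPM in liver n and 0.614 ± 0.686 in liver o, and 8.41 ± 1.10 in aorta n and 123.1 ± 28.4 in aorta o. Gabbr2 had 2.70 ± 1.71 CPM in liver n and 65.9 ± 11.2 in liver o, and at most 0.435 in any aorta library.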

How the results depend on the processing

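The counts of genes that differed between n and o of liver stayed within 1.5 times of the main ones under 22 of 23 other settings each, and with 1 library left out at a time they ran from 3828 to 4153 higher in n and from 3994 to 4165 higher in o. With a fold threshold of 2 on the log2 scale they were 2532 and 2741. The share of calls that were higher in n ran from 45% to 54.1% over the scalings, and a test against the fold threshold itself gave 3286 and 3481. With the suffix (n1, n2, o1 or o2) as a replicate block in limma voom 4059 genes were higher in n and 4161 higher in o, against 4059 and 4160 without it, with a consensus correlation of −0.01. Summing the vehicle and E2 library of a suffix gave 4092 and 3982. The number in the suffix (1 or 2) as a replicate block across n and o, added after seeing the data, gave 3982 and 4156, and n1 minus n2 correlated with o1 minus o2 with r = −0.02 in vehicle and 0.01 in E2 libraries. The check of pairing gave r = 0.25 for o1 minus o2 between vehicle and E2 and r = −0.06 for n1 minus n2, and o libraries of the same suffix correlated best (0.958 and 0.948, other o pairs 0.936 to 0.941). No label says what a suffix shares, so the fit without the block was kept, and whether a suffix pairs libraries is not settled. For the difference between E2 effects, where 0 genes were called, no filter gave 20, DESeq2 gave 26 and leaving out 1 library gave 0 to 2, the 2 being without vehicle o1. For the difference between tissues the replicate block gave 1473 genes higher in aorta, against 2666, and 884 higher in liver, and leaving out 1 library gave 1031 to 1453 higher in liver and 2282 to 2741 higher in aorta. Taking away the value fitted from length and GC turned the median of long non-coding RNAs to 0.12, of lymphocyte markers to −0.64, of UDP-glucuronosyltransferases to 0.029, of Zfp genes to 0.011, of mesothelial and adipose markers to −0.52, of cholesterol synthesis to 0.20 and of erythroid markers to −0.87, each with the opposite sign from before. Named genes kept direction and call in 3472 of 3540 settings by gene, 55 lost the call and 13 gained it, and none reversed. Few genes of the rare classes had enough counts to be tested: 8 of 68 replication-dependent histone genes, 6 of 105 small nucleolar RNAs and 9 of 1088 microRNA genes. As no label links a suffix to a kit or an instrument, the parts of kit, RNA input, pooling and instrument cannot be told apart.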

Other observations

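Within a type, libraries also differed by length. The difference between the E2 n1 and E2 n2 libraries correlated with transcript length with Spearman's rho = 0.32 across 11671 genes, against −0.04 for vehicle n1 and n2, 0.16 for vehicle o1 and o2 and 0.12 for E2 o1 and o2. With GC content the same pairs gave −0.06, 0.05, 0.11 and −0.01. These are descriptions of single pairs of libraries across genes. The rho between n and o was larger in size, at −0.55 with length and 0.55 with GC content, but comes from a fit to all 8 libraries.

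Single-exon coding genes had a median difference of 1.52 (181 genes) against −0.14 for those with several exons (11194 genes), and 0.80 against −0.12 after the value fitted from length and GC was taken away. Genes with and without a poly-A signal in the last 50 bases of the reference transcript had medians of −0.11 (8862 genes) and 0.01 (2809 genes). After the same adjustment the order was reversed, at −0.064 and −0.243. Processed pseudogenes in the reference, copies of messenger RNAs that share sequence with their parents, had 11 of 18 called higher in n and 3 higher in o (median 2.48), which was −0.35 after the same adjustment.

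The spread between libraries was larger in o: the common biological coefficient of variation was 0.342 in the o libraries and 0.239 in the n libraries.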
